A study of Mus musculus with 8 samples.

Results

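The mitochondrial ribosomal protein genes, whose mouse symbols begin with Mrpl or Mrps, encode the proteins of the ribosome that works inside mitochondria. They were taken as all genes with such a symbol among the probe sets that the platform annotation assigns to 1 gene. A gene was represented by its brightest probe set and kept when 2 or more of the 8 arrays read it above their own median of all named genes. The annotation placed 71 such genes on the array, 43 named Mrpl and 28 named Mrps, and 68 of them were kept (42 and 26). These 68 were among 11712 kept genes of 22180 named ones. Mrpl27, Mrps14 and Mrps36 were left out because no array read them above that median, with log2 levels of 4.45 to 5.48, 4.72 to 5.80 and 4.89 to 5.31. Another 7 genes (Mrpl30, Mrpl33, Mrpl41, Mrpl43, Mrpl44, Mrpl53 and Mrps6) had only probe sets that the annotation shares with another gene, and no value is given for them. Of the 68 kept genes, 66 were above it on all 8 arrays, Mrpl47 on 7, and Mrpl36 on the 4 pull-downs only.

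The arrays measured RNA from mouse medial prefrontal cortex (mPFC), the frontal cortical area that sends axons to many subcortical regions. Every mouse carried a Cre-dependent ribosomal tag for translating ribosome affinity purification (TRAP), in which green fluorescent protein (GFP) on the ribosome allows it to be purified from chosen cells. CAV2-Cre, a canine adenovirus that is taken up by axon terminals and delivers Cre recombinase, was injected into a target that the labels abbreviate as NAC or VTA, so the tag marks mPFC cells with axons in that target. The 4 groups were NAC pull-down and VTA pull-down, both purified with GFP-trap, and NAC input and VTA input, for which no purification reagent is given, with 2 arrays each. The labels give no age, sex or strain, do not name the promoter of the tag, and do not trace the arrays to single mice or pools, so a p-value here reflects the spread among these samples, which may be technical.

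Mitochondria keep a small genome that encodes core subunits of the respiratory chain, and these are made on a dedicated ribosome with a large and a small subunit. Its RNAs come from the mitochondrial genome, whereas all of its proteins are encoded in the nucleus, translated on cytosolic ribosomes and imported. Many of these proteins have a bacterial counterpart and others are found only in mitochondrial ribosomes. What the pull-down captures is the messenger RNA of the mitochondrial ribosomal proteins on tagged cytosolic ribosomes, not the mitochondrial ribosome itself.

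Mitochondrial ribosomal protein transcripts were more abundant in the tagged-ribosome RNA than in the input. Averaged over both targets, 38 of the 68 genes were higher in the pull-downs and 1, Mrps27, was lower at an adjusted p under 0.05 (limma, Benjamini-Hochberg over the 11712 genes, n = 4 pull-downs and 4 inputs). That is 55.9% higher, where 9.6% of all tested genes were higher, and 1.47% lower, where 32% of all tested genes were lower. The median difference over the family was 0.24 on the log2 scale, or 1.18-fold, against -0.11 over all tested genes, and single members ran from -0.33 to 0.96. In 29 members (42.6%) all 4 pull-downs lay above all 4 inputs, which held for 7.91% of all tested genes. No member had all 4 pull-downs below all 4 inputs, against 24.8% of all tested genes. Mrpl36, which entered through its pull-downs alone and so had to be higher there, is among the 38 and the 29. Over the 66 members above the median on all 8 arrays, refitted among such genes only, 39 were higher, against 10.1% of all genes so kept, and 1 was lower, against 34.5%. As in any bulk RNA, more cells of a kind and more RNA per cell cannot be told apart.

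**Figure D1:**
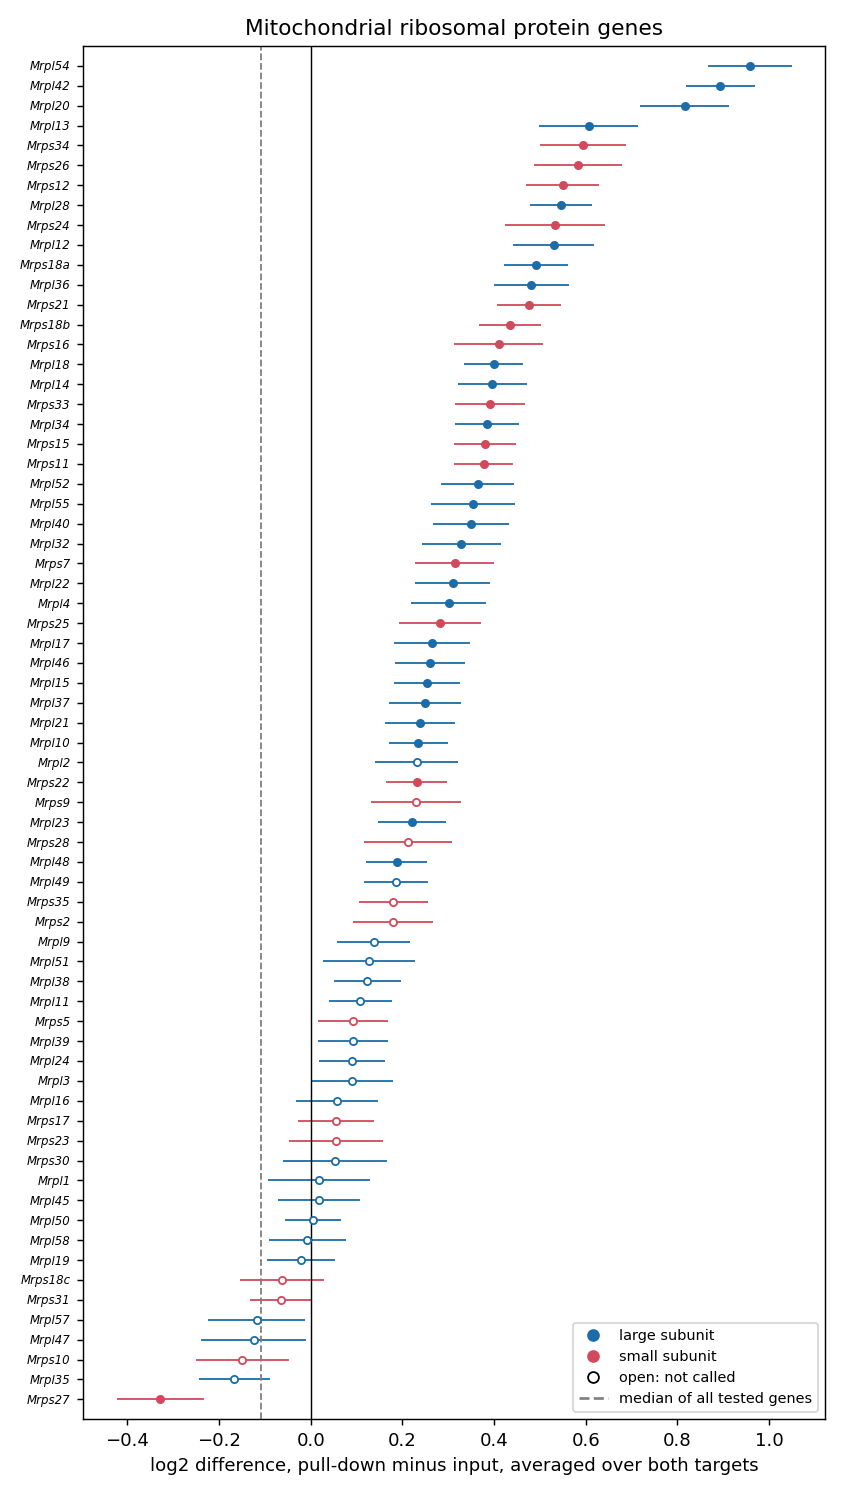
Pull-down minus input on the log2 scale, averaged over both targets, for each of the 68 mitochondrial ribosomal protein genes, with bars of 1 standard error (SE) from the limma model (4 pull-down and 4 input arrays). Filled points passed the adjusted p of 0.05, blue marks the large and red the small subunit, and the dashed line is the median of all 11712 tested genes at -0.11. The 38 filled points right of 0 contrast with 1 filled point left of 0, Mrps27.

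The family's shift was visible on every array. The median level over the 68 members was 7.66 to 7.78 on the 4 pull-downs and 7.36 to 7.49 on the 4 inputs, so the groups did not overlap. Relative to the median of all tested genes on the same array, the members stood 0.15 to 0.29 higher on the pull-downs and between -0.22 and -0.17 on the inputs. With the deposited values the median difference over all tested genes, pull-down minus input, was -0.11. When the arrays were instead centred on the tested genes, that median difference became 0.03. On that scale 52 members were higher, against 21.3% of all tested genes, and none was lower, against 15%. The 52 included all 38. Array pairs of the same group correlated at 0.981 to 0.991 and pairs from different groups at 0.973 to 0.988. Rpl10a, the gene of the ribosomal protein that carries GFP in the commonly used TRAP mice (the labels do not name the tagged protein), lay at 11.9 to 12.1 on the pull-downs and 9.87 to 10.9 on the inputs.

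The large subunit joins amino acids into protein and holds the tunnel through which the chain leaves. By structure it includes 44 of the kept genes, since the proteins of Mrps18a and Mrps30 sit in the large subunit despite their names. Of these 44, 25 rose and none fell, with a median of 0.24. Of all tested genes 9.6% rose and 32% fell. Among the 27 with a bacterial counterpart 17 rose (median 0.25), and among the 17 particular to mitochondria 8 rose (median 0.19). The 25 rises, and the 17 among those with a bacterial counterpart, include Mrpl36, which passed the filter through its pull-downs alone.

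The members with the 3 largest rises all belong to the large subunit. Mrpl54, a protein particular to mitochondria, measured 8.71 and 8.65 on the NAC pull-downs, 8.45 and 8.68 on the VTA pull-downs, 7.50 and 7.69 on the NAC inputs and 7.57 and 7.89 on the VTA inputs (log2 levels of arrays 1 and 2). Its difference was 0.96 (SE 0.09, 1.94-fold, limma adjusted p 0.000198). All 4 pull-downs were high and all 4 inputs low, with a gap wider than the spread within either side. Mrpl42, also particular to mitochondria, measured 8.63 and 8.60 on the NAC pull-downs and 8.39 and 8.58 on the VTA pull-downs against 7.54 and 7.75 on the NAC inputs and 7.70 and 7.64 on the VTA inputs. It rose by 0.89 (SE 0.08, 1.86-fold, limma adjusted p 0.000137), again without overlap. Mrpl20, whose bacterial counterpart is needed early in large subunit assembly, measured 7.48 and 7.41 on the NAC pull-downs and 7.40 and 7.43 on the VTA pull-downs against 6.47 and 6.72 on the NAC inputs and 6.43 and 6.83 on the VTA inputs. Its rise was 0.82 (SE 0.10, 1.76-fold, limma adjusted p 0.000463), and the 4 pull-down values were closer together than the 4 input values.

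Other large subunit genes rose less. Mrpl13 measured 8.13 and 7.68 on the NAC pull-downs and 7.72 and 7.97 on the VTA pull-downs and 7.24 and 7.02 on the NAC inputs and 7.46 and 7.36 on the VTA inputs, a rise of 0.61 (SE 0.11). Its pull-down arrays were spread more widely than those of Mrpl54 but still lay above all inputs. Mrpl28 rose by 0.55 (SE 0.07) and Mrpl12, the counterpart of the bacterial stalk protein to which translation factors bind, by 0.53 (SE 0.09). Mrps18a rose by 0.49 (SE 0.07). The limma adjusted p was 0.0026 for Mrpl13, 0.000532 for Mrpl28, 0.0019 for Mrpl12 and 0.00103 for Mrps18a. In each of these 4 genes the lowest pull-down exceeded the highest input. Mrpl36 lay at 6.15 to 6.48 on the pull-downs and 5.78 to 5.91 on the inputs, a difference of 0.48; its inputs were below their array medians (5.94 to 5.98), so this is a description of a gene that passed the filter only where it was high.

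The small subunit binds the messenger RNA and holds the decoding site. It accounts for 24 of the kept genes, of which 13 rose and 1 fell, with a median of 0.26, beside the same 9.6% and 32% of all tested genes. Among the 14 with a bacterial counterpart 7 rose (median 0.27), and among the 10 particular to mitochondria 6 rose and 1 fell (median 0.26). The medians of all 4 classes, from 0.19 to 0.27, thus lay above that of all tested genes. Centred on the tested genes, the 4 medians were 0.32 to 0.41.

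Mrps34, a small subunit protein particular to mitochondria, measured 7.98 and 8.16 on the NAC pull-downs, 8.01 and 8.17 on the VTA pull-downs, 7.50 and 7.46 on the NAC inputs and 7.30 and 7.68 on the VTA inputs. It rose by 0.59 (SE 0.09, 1.51-fold, limma adjusted p 0.00152), and the second VTA input was its highest input. Mrps26 measured 8.66 and 8.70 on the NAC pull-downs and 8.69 and 8.94 on the VTA pull-downs and 8.17 and 8.21 on the NAC inputs and 7.94 and 8.34 on the VTA inputs. It rose by 0.58 (SE 0.10, 1.5-fold, limma adjusted p 0.00183), with all pull-downs above all inputs. Mrps12, the counterpart of the bacterial protein at the decoding site that affects accuracy, rose by 0.55 (SE 0.08, limma adjusted p 0.0011). Mrps24 rose by 0.53 (SE 0.11, limma adjusted p 0.00466). Neither gene's pull-down values overlapped its inputs.

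**Figure D2:**
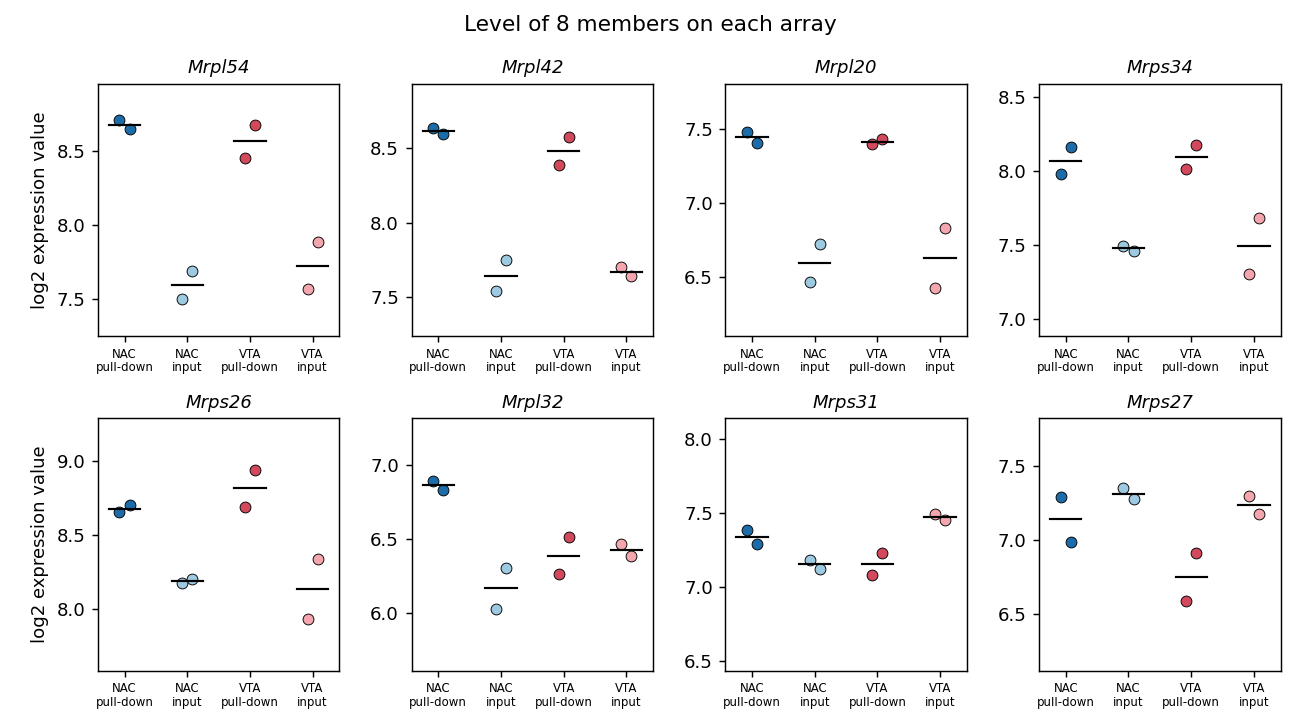
Log2 expression value of 8 mitochondrial ribosomal protein genes on each array, by group; points are single arrays (2 per group), bars are group means, and each panel spans the same range of log2 units. Mrpl54, Mrpl42, Mrpl20, Mrps34 and Mrps26 are higher on all pull-downs than on all inputs, Mrpl32 is high only on the NAC pull-downs, and Mrps31 and Mrps27 are lower on the VTA pull-downs than on the VTA inputs.

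Mrps27, which encodes a small subunit protein of the pentatricopeptide repeat kind that binds RNA, was the member that went the other way. It measured 7.29 and 6.99 on the NAC pull-downs and 6.59 and 6.91 on the VTA pull-downs against 7.35 and 7.28 on the NAC inputs and 7.30 and 7.18 on the VTA inputs. The VTA pull-downs were lowest, while the first NAC pull-down lay within the range of the inputs. The averaged difference was -0.33 (SE 0.10, limma adjusted p 0.0206). The call was lost with arrays centred on the tested genes (-0.19, limma adjusted p 0.0797) and with quantile normalization (-0.25, limma adjusted p 0.0502). It was also lost without the second NAC pull-down, the first VTA pull-down, the first NAC input or the first VTA input (limma adjusted p 0.0606 to 0.0805), and without the filter on low values (limma adjusted p 0.0689).

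At the other end, 4 members differed least between pull-down and input. They were Mrpl50 at 0.01 (SE 0.06), Mrpl58 at -0.01 (SE 0.08), Mrpl45 at 0.02 (SE 0.09) and Mrpl1 at 0.02 (SE 0.11). The sign of all 4 turned when single arrays were left out, and that of Mrpl58 also turned under every other scaling tried. Mrpl58 encodes a protein that can release stalled chains, and Mrpl45 one that tethers the ribosome to the inner membrane. Mrpl50 was the steadiest of them, its pull-downs lying between 7.92 and 8.02 and its inputs, within that range, between 7.95 and 7.98. In all, 59 members had a difference above 0 and 9 below 0.

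The members' promoters were searched for letters that match factors known to regulate nuclear genes of mitochondria. RefSeq promoters (GRCm38.p6, 250 bases before to 50 after the start) matched 59 of the 68 members. A gene was counted when any of its promoters held the letters. The NRF1-type letters GCGCANGCG were in 14 of the 59 (23.7%) against 7.03% of all 27025 gene symbols with a promoter. The ETS-type letters CCGGAAG, the core bound by GABP, were in 22 (37.3%) against 9.93%. The YY1-type letters AAGATGG were in 13 (22%) against 7.28%, and CCAAT was in 23 (39%) against 41.1%. Both strands were searched, and overlaps between motifs were allowed. At least 1 of the first 3 motifs was in 38 members (64.4%), against 21.4% of all these gene symbols. Among the 33 matched members that rose, the NRF1, ETS and YY1 types were in 9, 15 and 10, and among the other 26 in 5, 7 and 3. These matches describe letters in a window and not binding. The shares over all gene symbols include genes that were not tested on these arrays. Any part of these letters in the pull-down differences was not tested. The 100 bases before the start are shown for a member with each motif that rose and for the member that fell, to set side by side what their promoters share. Capitals mark the motif, written as it reads on the gene's strand.
Mrpl12 (rose, NRF1-type, chr11:120484537-120484636, plus strand): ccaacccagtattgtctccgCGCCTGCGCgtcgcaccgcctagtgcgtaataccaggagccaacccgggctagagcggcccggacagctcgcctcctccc
Mrps26 (rose, ETS-type, chr2:130563657-130563756, plus strand): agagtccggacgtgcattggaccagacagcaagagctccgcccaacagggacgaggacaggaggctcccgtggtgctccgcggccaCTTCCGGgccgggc
Mrpl52 (rose by 0.36, YY1-type and ETS-type, chr14:54426809-54426908, plus strand): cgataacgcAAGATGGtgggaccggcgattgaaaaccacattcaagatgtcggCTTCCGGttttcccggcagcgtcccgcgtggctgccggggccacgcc
Mrps27 (fell, ETS-type, chr13:99344686-99344785, plus strand): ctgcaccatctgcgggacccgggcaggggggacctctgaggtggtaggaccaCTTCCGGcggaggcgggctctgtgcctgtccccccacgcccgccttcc
Mrps26 and Mrpl52, which rose, and Mrps27, which fell, carry the same ETS-type letters in the same orientation. Mrpl42 had none of the 3 motifs in its 100 bases although it had the second largest rise.

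The rise was present with each target taken alone. In the NAC samples 26 of 68 members were higher in the pull-down (38.2%, against 4.34% of all tested genes) and none was lower (0%, against 8.01%). At an unadjusted p under 0.05, 39 were higher and none lower (57.4%, against 30.5% of all tested genes in either direction). With limma's trended and robust moderation 33 were higher, against 6.1% of all tested genes. The median was 0.31, against -0.06 over all tested genes (n = 2 pull-downs and 2 inputs), and 64 members were above 0. The members with the largest NAC rises were Mrpl54 at 1.08 (SE 0.13), Mrpl42 at 0.97 (SE 0.11), Mrpl20 at 0.85 (SE 0.14) and Mrpl13 at 0.77 (SE 0.15). Their limma adjusted p-values were 0.00235, 0.00202, 0.0075 and 0.0149. The NAC count moved with single arrays, as did the share of all tested genes called higher. It was 14 without the first NAC pull-down (all genes 2.42%), 8 without the second (0.734%), 3 without the first NAC input (Mrpl28, Mrpl42 and Mrpl54; 0.649%) and 6 without the second (0.538%), where Mrpl13 was among those lost (limma adjusted p 0.104).

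In the VTA samples 20 members were higher in the pull-down (29.4%, against 5.44% of all tested genes) and 2 were lower (2.94%, against 25.9%). At an unadjusted limma p under 0.05, 27 were higher and 5 lower (47.1%, against 44.2% of all tested genes in either direction). With limma's trended and robust moderation 28 were called in either direction, against 35.2% of all tested genes. These included falls of Mrpl35, Mrps27 and Mrps31. The median was 0.15, against -0.15 over all tested genes (n = 2 and 2). The largest rises were those of Mrpl54 at 0.84 (SE 0.13), Mrpl42 at 0.81 (SE 0.11), Mrpl20 at 0.78 (SE 0.14) and Mrps26 at 0.68 (SE 0.14). Their limma adjusted p-values were 0.00323, 0.00225, 0.00468 and 0.0073. The 2 lower members of the first count both belong to the part of the small subunit that bacteria lack. Mrps27 fell by 0.48 (SE 0.13, limma adjusted p 0.0235). Mrps31 measured 7.08 and 7.23 on the VTA pull-downs and 7.49 and 7.45 on the VTA inputs, a fall of 0.31 (SE 0.10, limma adjusted p 0.0337), while on the NAC arrays it was 7.38 and 7.29 in the pull-downs and 7.18 and 7.12 in the inputs. Neither fall was called under the 3 other scalings tried: with arrays centred on the tested genes the limma adjusted p was 0.0841 for Mrps27 and 0.305 for Mrps31. The VTA calls moved with single arrays, as did the share of all tested genes called higher. Without the first VTA input most of the members' calls were lost, as were most of those over all tested genes. Without the second VTA pull-down some members were called lower, a smaller share than among all tested genes. Each of these fits leaves a single array in that group.

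Across the 68 members the NAC and VTA differences, which share no arrays, ran together, with Pearson's r of 0.73 and Spearman's rho of 0.69, as a description across genes that share the same arrays. Over all tested genes the values were 0.69 and 0.67. In 52 members both differences were above 0, in 3 both were below, and in 13 they had opposite signs. Over all 11712 tested genes these counts were 2614, 6255 and 2843. Called higher with both targets were 15 members (22.1%, against 2.09% of all tested genes), with NAC and not VTA 11 (16.2%, against 2.25%), and with VTA and not NAC 5 (7.35%, against 3.35%). The NAC difference was the larger in 53 members (77.9%), as it was in 67.9% of all tested genes.

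**Figure D3:**
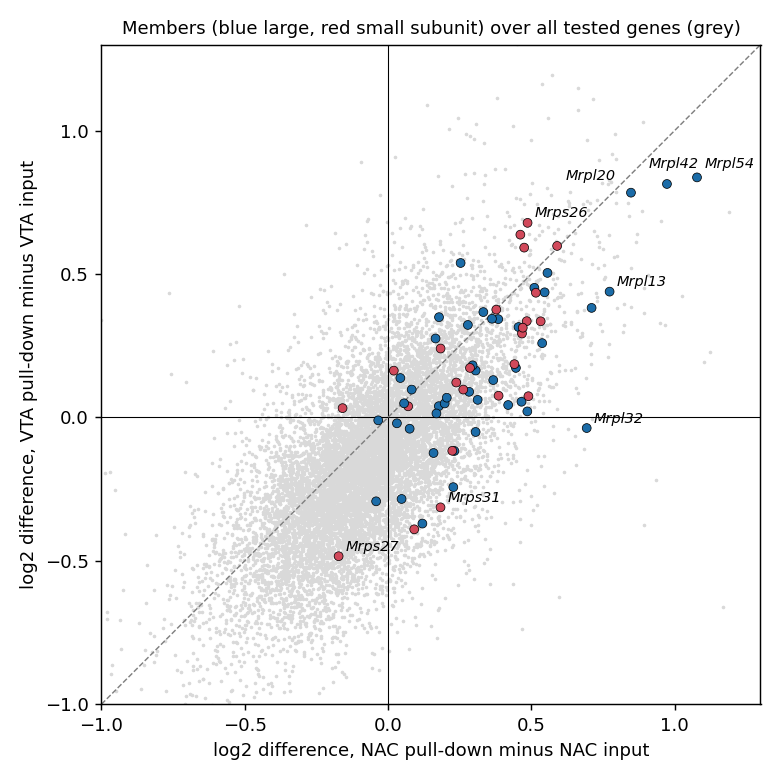
Pull-down minus input on the log2 scale with NAC (horizontal) against VTA (vertical) for the 68 mitochondrial ribosomal protein genes, blue for the large and red for the small subunit, over all tested genes in grey; the dashed line marks equal differences. Most members lie right of and above 0, Mrpl54, Mrpl42 and Mrpl20 are farthest along both axes, and Mrpl32 is high with NAC at 0.69 and not with VTA at -0.04. Axes run from -1 to 1.3, and 84 genes outside them are not drawn.

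Whether the enrichment itself differed between the targets was tested as a difference of differences. No member passed (0%, against 0.0683% of all tested genes), the smallest limma adjusted p being 0.255. At an unadjusted p under 0.05 there were 9 members (13.2%, against 12% of all tested genes), all with the VTA difference below the NAC difference. With limma's trended and robust moderation none was called. The median over the family was -0.15 (VTA minus NAC), against -0.09 over all tested genes. Mrpl32, which is cut to its mature form by a protease of the inner membrane before it joins the ribosome, had the largest such difference and was chosen after its values were seen. It measured 6.89 and 6.83 on the NAC pull-downs and 6.03 and 6.31 on the NAC inputs, but 6.26 and 6.51 on the VTA pull-downs and 6.46 and 6.38 on the VTA inputs. The NAC pull-downs stood apart and the other 6 arrays overlapped. Its difference of enrichment was -0.73 (SE 0.17, limma adjusted p 0.255). The 95% intervals of the difference of enrichment in 31 members lay within 0.5 of 0.

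The pull-downs of the 2 targets were also compared directly. No member passed (0%, against 2.47% of all tested genes), and the median was -0.04 for VTA minus NAC, the same as over all tested genes. At an unadjusted p under 0.05 there were 5 members (7.35%, against 16.2% of all tested genes), named after their values were seen. Mrpl32 at -0.48, Mrpl18 at -0.35, Mrps27 at -0.39 and Mrps18b at -0.26 were lower with VTA, and Mrpl14 at 0.34 was higher (SE 0.12, 0.09, 0.13, 0.10 and 0.11). The smallest limma adjusted p was 0.0783, for Mrpl32. That gene was called without the second VTA pull-down, a fit with a single VTA pull-down in which more of all tested genes were called too. Mrpl18 was the only member called with limma's trended and robust moderation, where 4.7% of all tested genes were called. In 62 members the 95% interval of the VTA minus NAC difference lay within 0.5 of 0 on the log2 scale.

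The inputs, which hold all cells of the dissected tissue, gave no called member either (0%, against 1.5% of all tested genes; none with limma's trended and robust moderation). The median was 0.08 for VTA minus NAC, against 0.06 over all tested genes, and 54 members were above 0. At an unadjusted p under 0.05 there were 7 members (10.3%, against 10.9% of all tested genes), all higher in the VTA inputs. The smallest limma adjusted p was 0.076. In 54 members the 95% interval lay within 0.5 of 0.

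Some genes were read by more than 1 probe set. A second probe set was bright enough to be tested for 5 members, in a fit over 13066 probe sets. Mrpl12 rose on both (0.53 and 0.82), as did Mrps16 (0.41 and 0.50) and Mrps18b (0.43 and 0.18). The Mrps18b probe sets were of like brightness (7.83 and 7.81), and the second passed at a limma adjusted p of 0.0493. With VTA alone the first rose by 0.34 (limma adjusted p 0.0276) and the second differed by 0.03 (limma adjusted p 0.793). The VTA call of Mrps18b thus rests on 1 probe set. Its VTA minus NAC pull-down differences were -0.26 and -0.105. The reading of Mrps17 depended on the probe set: the brighter one differed by 0.05 (limma adjusted p 0.625) and the dimmer one rose by 0.40 (limma adjusted p 0.00439). For Mrpl10 the differences were alike at 0.23 and 0.25, but the dimmer probe set did not pass (limma adjusted p 0.135).

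Proteins of the mitochondrial ribosome that carry other names were read separately. Gadd45gip1, a large subunit protein at the chain's exit, rose by 0.29 (SE 0.09, limma adjusted p 0.0231). Dap3, a GTP-binding protein of the small subunit, differed by 0.06 (SE 0.07, limma adjusted p 0.518). Ptcd3, a pentatricopeptide repeat protein of the small subunit like Mrps27, measured 6.72 and 6.93 on the NAC pull-downs, 7.63 and 7.90 on the VTA pull-downs, 9.29 and 9.38 on the NAC inputs and 8.22 and 9.18 on the VTA inputs. All its pull-downs were below all its inputs, a difference of -1.72 (SE 0.17, limma adjusted p 0.000247). Its second probe set, of like brightness, differed by 0.00 (limma adjusted p 0.989), so the fall of Ptcd3 rests on 1 of its 2 probe sets. Chchd1, Aurkaip1 and Ict1 (the older name of Mrpl58) were not read under those names.

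The remaining genes of mitochondrial translation are given beside the 9.6% of all tested genes that were higher and the 32% that were lower. Of 23 tested translation factors and mitoribosome assembly factors, 2 rose and 6 fell (median -0.15), shares near those of all genes. Tsfm, an elongation factor, rose by 0.35 (SE 0.08) and Rbfa, which matures the small subunit, by 0.28 (SE 0.07), while Eral1, a chaperone of the small subunit RNA, was at -0.51 (SE 0.08) and Fastkd2, an RNA-binding protein, at -0.42 (SE 0.10). Of 19 mitochondrial aminoacyl-tRNA synthetases and amidotransferase genes, none rose and 6 fell (median -0.15), with the largest falls in Iars2 at -0.39 (SE 0.09) and Vars2 at -0.37 (SE 0.12), which charge tRNAs with isoleucine and valine. None of 9 genes for mitochondrial DNA transcription, replication and RNA processing passed (median -0.02). Among 9 regulators of mitochondrial genes none rose and 2 fell, Gabpb1 at -0.26 (SE 0.08) and Gabpa at -0.25 (SE 0.09), the subunits of the factor whose ETS-type letters were searched above. With arrays centred on the tested genes, these 4 lists had 4 rises and 3 falls, 2 and 2, 2 and none, and 2 and none (all tested genes 21.3% and 15%), so the falls of Gabpb1 and Gabpa were not called on that scale.

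Other nuclear-encoded mitochondrial genes were higher more often than the 9.6% of all tested genes. Of 71 tested respiratory chain genes 46 rose and none fell (64.8%, median 0.31), led by Atp5d of the ATP synthase at 0.91 (SE 0.13) and Cox7b of cytochrome c oxidase at 0.89 (SE 0.15). Of 21 genes for protein import into mitochondria, 6 rose and 1 fell (median 0.09). Timm13 and Timm8b, small chaperones of the space between the membranes, were at 0.62 (SE 0.08) and 0.58 (SE 0.06), and Timm21, an inner membrane import protein, at -0.55 (SE 0.10). Among the 49 genes of cytosolic ribosomal proteins there were 17 rises and no fall (34.7%, median 0.16), Rpl10a at 1.49 (SE 0.10) and Rps28 at 0.61 (SE 0.10) being largest. These shares stand beside the 55.9% of the mitochondrial ribosomal protein genes, and differences between the lists were not tested. Centred on the tested genes, the rises were 57 of 71, 14 of 21 and 28 of 49, against 21.3% of all tested genes.

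**Figure D4:**
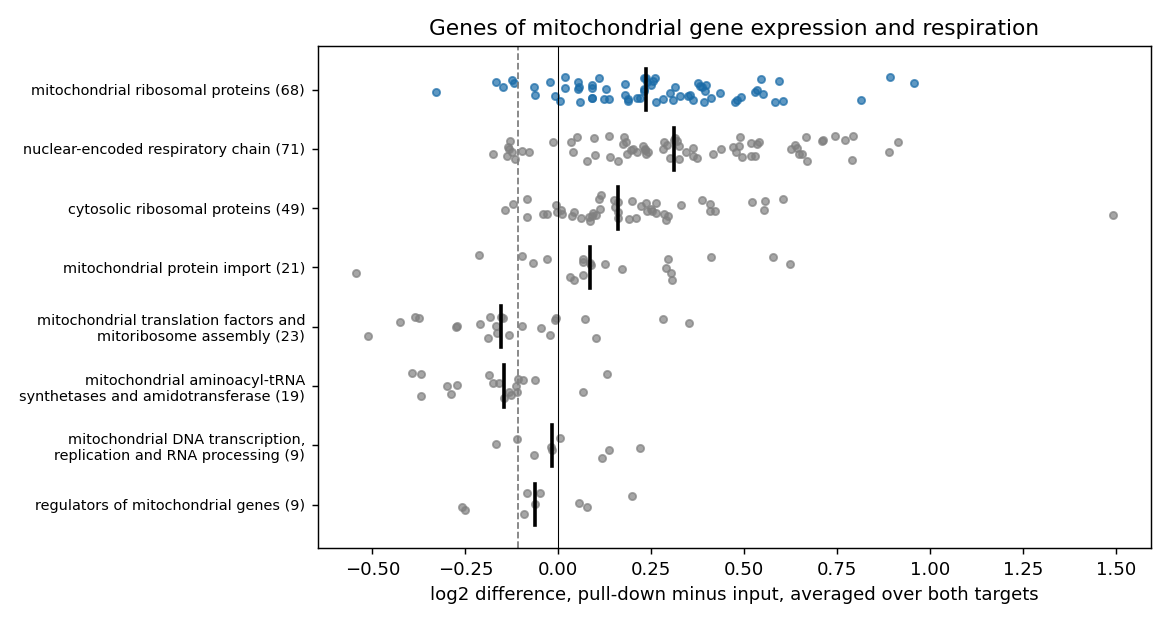
Pull-down minus input on the log2 scale, averaged over both targets, for each tested gene of the mitochondrial ribosomal protein family and 7 related lists; points are genes, thick bars are list medians, numbers in brackets are tested genes, vertical scatter has no meaning, and the dashed line is the median of all tested genes. The ribosomal protein and respiratory chain lists sit mostly right of 0, and the translation factor and aminoacyl-tRNA synthetase lists mostly left. The median of all tested genes, -0.11, also lies left of 0.

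Markers of cell types moved with the same comparison, in which 32% of all tested genes were lower. Of 8 tested markers of projection neurons, the cells the tag is meant to mark, 3 were higher in the pull-downs and 2 lower. The mean level of that list was 10.27 to 10.30 on the NAC pull-downs, 10.31 to 10.37 on the VTA pull-downs, 10.23 to 10.28 on the NAC inputs and 10.29 on both VTA inputs. All 9 oligodendrocyte markers were lower, with list means of 9.01 to 9.10 on the NAC pull-downs, 8.98 to 9.06 on the VTA pull-downs, 9.65 to 9.73 on the NAC inputs and 9.52 to 9.57 on the VTA inputs. Oligodendrocytes form myelin and have no axons of their own, and their list mean was lower on every pull-down than on every input. Of 9 microglia markers 8 were lower, with list means of 8.03 to 8.07 and 7.70 to 7.76 on the NAC and VTA pull-downs and 8.60 to 8.61 and 8.18 to 8.19 on their inputs. Of 8 astrocyte markers 6 were lower, with list means of 9.16 to 9.27 and 9.09 to 9.19 on the pull-downs and 9.66 to 9.68 and 9.48 to 9.54 on the inputs. GABAergic interneurons are cells whose axons mostly stay within the cortex. Of 9 GABAergic interneuron markers 7 were lower, with list means of 7.998 to 8.06 and 8.13 to 8.23 on the pull-downs and 8.48 to 8.49 and 8.46 to 8.52 on the inputs. Of 6 endothelial markers 4 were lower, with list means of 6.53 to 6.55 and 6.57 to 6.82 on the pull-downs and 6.91 to 7.07 and 7.01 to 7.05 on the inputs. None of the markers in these 5 lists was higher, and all 5 list means stayed above the array medians of named genes (5.86 to 5.98) on the pull-downs. Centred on the tested genes, 4 of the projection neuron markers were higher and none was lower. The other 5 lists, in the order above, then had 9, 7, 5, 5 and 3 markers lower and none higher. On that scale 21.3% of all tested genes were higher and 15% lower. The part of these cell types in the rise of the mitochondrial ribosomal protein genes was not tested.

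Longer genes tended to have lower pull-down differences, both in the family and outside it. Over the 68 members, all found in RefSeq, Spearman's rho between the averaged difference and the length of the gene in the genome was -0.34, and over 11692 tested genes it was -0.36, as a description across genes of the same arrays. The median span was 7447 bases in the 38 members that rose and 8719 in the other 30. The difference was less related to the mean level of a member (rho 0.16). The members lie on 17 chromosomes, with 10 on chromosome 11.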

How the data were processed

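RNA from 8 samples in 4 groups of 2 was measured on Affymetrix arrays. The authors deposited log2 values of 41345 probe sets, made with Transcriptome Analysis Console per the submitters' processing notes. The sources used here do not give its background correction or normalization, and the log2 base was inferred from the values. The deposited values were used unchanged. The platform annotation gave 1 gene symbol for 23521 probe sets, several for 1814 and none for 16010, and only the first were named. Of the 93 probe sets listing a mitochondrial ribosomal protein gene, 80 named that gene alone. Each gene took its probe set with the highest mean, and genes above the array median on at least 2 arrays were tested.

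A model with a mean per group was fitted to all 8 arrays and 11712 genes with limma 3.58.1 in R 4.3.3 (lmFit and eBayes, 4 residual and 6.07 prior degrees of freedom). Two-sided p-values were adjusted with the Benjamini-Hochberg method over all tested genes, with a threshold of 0.05. There were 6 comparisons. The code was tested on simulated data. The number of arrays limits the precision.

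The members and the gene lists were chosen with earlier results of these data known, so no list is independent evidence. Named were the 12 largest rises, every fall and the 4 differences nearest 0 in the averaged comparison, the 4 largest calls in each direction per target, members whose probe sets disagree, and the 2 largest calls in each direction of the other lists. Respiratory chain, import and cytosolic ribosomal protein genes were taken by symbol pattern.

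Alternatives were other scalings, filters and probe set rules, trended and robust moderation, the replicate number as a block, only the arrays compared, and leaving out each array. Promoters came from RefSeq (GRCm38.p6); 9 members without an entry were not searched.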

Additional observations from a re-analysis of the deposited data

Results flagged for a closer look

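Probe sets that the annotation assigns to a mitochondrial ribosomal protein gene together with another gene were outside the comparisons above and carry no gene name here. Of 13 such probe sets 9 were bright enough to be tested in a limma fit over 13066 probe sets, and 5 differed between pull-down and input averaged over both targets at a Benjamini-Hochberg adjusted p under 0.05. In the separate fit over genes, 41.5% of all tested genes differed in that comparison. The difference was 0.40, 0.33, 0.29 and 0.18 on the log2 scale in the 4 that were higher in the pull-downs and -0.25 in the 1 that was lower.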

How the results depend on the processing

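The number of arrays limits every count, and how the values were normalized before deposit is unknown. All 38 averaged rises were also called with arrays centred on their medians, on the medians of tested genes (an alternative chosen after seeing the data) or with quantile normalization, and 23 of them in all 8 fits that left out 1 array. Without the filter on low values the calls were 23 of 71 averaged, 3 with NAC (Mrpl28, Mrpl42 and Mrpl54) and 9 with VTA, all higher, and 4.76%, 0.221% and 2.49% of all genes were higher. Centring on tested genes gave 36 calls with VTA, all higher, against 14.7% of all tested genes. Between the pull-downs 1 member was called with trended and robust moderation, where 4.7% of all tested genes were called. Leaving out 1 array gave 28 to 36 averaged calls, 3 to 31 with NAC, 2 to 24 with VTA and 0 to 1 between the pull-downs. Each of these fits leaves a single array in 1 group, and the share of all tested genes called moved too. For the averaged, NAC and VTA comparisons that share was lowest in the same fit as the members' count. The swing is thus not particular to the members. The averaged difference of Mrpl58 became 0.0510, 0.128 and 0.0565 under centring, centring on tested genes and quantile normalization. Leaving out 1 array, it ran from -0.0776 to 0.0625, that of Mrpl45 from -0.0594 to 0.0944, that of Mrpl1 from -0.0935 to 0.13 and that of Mrpl50 from -0.00107 to 0.0118. The members' median between the pull-downs became 0.00776 with centring on tested genes and ran from -0.0942 to 0.0183 without 1 array. The cause of these changes was not tested. Replicate numbers are shared between groups, but the labels give them no meaning, and the deviations of same-numbered samples correlated at 0.109 for NAC and 0.0168 for VTA. With the replicate number as a block the calls in either direction were 39 averaged (41.7% of all tested genes), 27 with NAC (12.4%) and 22 with VTA (31%). There were 0 between the pull-downs (2.57%), between the inputs (1.51%) and for the difference of enrichment (0.00854%). With pairs within each target they were 40 (43.4%), 28 (13.5%), 24 (33.2%) and 0 for the difference of enrichment (0.00854%).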
